A study of Mus musculus with 24 samples.

Results

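The passage from late light to early dark was examined in mouse hearts homozygous for Clock delta 19 (Clock delta 19/delta 19) by setting the 4 hearts taken at Zeitgeber time 15 (ZT15) against the 4 hearts taken at ZT11. Zeitgeber time counts hours from lights on, and the mice lived under 12 h of light and 12 h of darkness, so ZT11 lies in the last hour before lights off and ZT15 is 3 h into the dark. The 8 hearts belong to a set of 24, with 4 biological replicates at each of ZT03, ZT07, ZT11, ZT15, ZT19 and ZT23, and they were chosen by the time point in their titles alone. All mice were male, 8 weeks old and homozygous for the mutation, every sample was labelled as myocardium, and transcripts were measured on Affymetrix arrays of a single colour. Because all groups carry the mutation and wild-type hearts were not analysed here, nothing below compares genotypes.

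The circadian clock of a heart cell is a feedback loop in which CLOCK and its partner BMAL1, the product of Arntl, switch on the Period and Cryptochrome genes, whose proteins then repress that switch. In delta 19 the Clock transcript skips an exon, and the shortened protein still pairs with BMAL1 but activates transcription poorly. Mice are nocturnal: around lights off they wake, move and begin to feed, corticosterone is high and body temperature climbs. Insulin after a meal silences FoxO factors, which otherwise drive muscle-wasting genes, while glucocorticoids and heat act on transcription through the glucocorticoid receptor and heat shock factor 1. Clock timing, feeding, hormones and temperature therefore change together across this interval, and the design does not separate them.

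All values are on a log scale taken as log2, and each feature had been centred on its own median over the 24 arrays. A value of 0 is thus a gene's usual level in these hearts, and the levels of different genes cannot be ranked. Differences are ZT15 minus ZT11 with the SE of a limma fit over all 24 hearts, and n is 4 hearts per time point throughout. The features of ventricular cardiomyocyte genes lay mostly in the brighter of the 2 signal classes that the stored numbers still reveal: 9 of 10 markers, among them Myh6, Tnnt2 and Ryr2, did, against 461 of all 22180 genes. That class also held 3 of 12 endothelial, 3 of 10 smooth muscle and pericyte, 3 of 9 brown adipocyte and 2 of 11 fibroblast markers. The atrial, white adipocyte and skeletal muscle lists had 1 marker each in it. None of the macrophage, lymphocyte, neutrophil, mesothelial, Schwann cell or neuron, or thymus and lung markers lay in it. ZT11 replicate 1 stood apart, with 16.2% of its genes outside the range of the other hearts, where the other 23 hearts had 6.16% to 12.4%.

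Of 22180 genes, 0 (0.00%) passed an adjusted p of 0.05 for ZT15 minus ZT11 with limma and Benjamini-Hochberg adjustment, and the smallest adjusted p was 0.0895. An unadjusted p under 0.05 was reached by 1603 genes (7.23%), where chance gives 1109. Of these, 793 were higher at ZT15 (3.58%) and 810 lower (3.65%). In 720 genes (3.25%) the 4 hearts of one time point all lay to one side of the 4 hearts of the other, 393 with ZT15 higher (1.77%) and 327 with ZT15 lower (1.47%). By exact permutation of 4 against 4 hearts, chance gives such a split in either direction with a probability of 0.0286. The share of 3.25% lies near this, so a lack of overlap is a description of the hearts only. Sizes were small: the median absolute difference was 0.040, and 13 genes differed by 1.5-fold or more. Without ZT11 replicate 1 the number of genes that passed was 2, Mcoln1 and Rpl38, and without ZT15 replicate 3 it was 3, Fbxo32, Eif6 and Msantd4. The genes named below are accordingly described by their values in each heart, and none of them passed this comparison with all hearts included.

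The lowest p of all belonged to Mcoln1, which codes for a calcium channel of the lysosome membrane. Its values were -0.0065, 0.081, 0.15 and 0.32 in the ZT11 hearts and -0.20, -0.20, -0.26 and -0.21 in the ZT15 hearts, a difference of -0.35 ± 0.06 (adjusted p with limma 0.0895). The groups did not overlap, and the ZT15 hearts lay within a much narrower band than the ZT11 hearts. Fbxo32 codes for atrogin-1, a ubiquitin ligase that marks muscle proteins for degradation. It was measured at 0.13, 0.16, 0.19 and 0.56 at ZT11 and at -0.35, -0.29, -0.01 and -0.54 at ZT15, a difference of -0.56 ± 0.10 (adjusted p 0.0895). The heart at 0.56, ZT11 replicate 4, was far above its group, and the heart nearest to the ZT11 values was ZT15 replicate 3. Without that ZT15 heart the difference was -0.66 (adjusted p with limma 0.0159).

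Lbr, the gene of a receptor that holds chromatin to the nuclear lamina, lay at 0.05, 0.25, 0.15 and 0.23 at ZT11 and at -0.22, -0.20, -0.28 and -0.43 at ZT15. The difference was -0.45 ± 0.09 (adjusted p with limma 0.0895). Rpl38, which codes for a protein of the large ribosomal subunit, was at 0.18, 0.83, 0.57 and 0.60 at ZT11 and at -0.17, 0.11, -0.12 and -0.15 at ZT15. Its difference of -0.63 ± 0.12 was the widest of the 20 genes of smallest p, although ZT11 replicate 1 lay close to the dark-phase hearts. S1pr1, a sphingosine-1-phosphate receptor gene of endothelium, was lower by the same pattern (-0.46 ± 0.10), with ZT11 hearts from 0.17 to 0.52 and ZT15 hearts from -0.28 to -0.00086. The mitophagy gene Bnip3 (-0.34 ± 0.07), the mitochondrial protease gene Clpp (-0.29 ± 0.06), the DNA-end-binding Ku subunit gene Xrcc5 (-0.25 ± 0.05), the phospholipid acyltransferase gene Lpcat1 (-0.34 ± 0.07) and the histone gene H2ac10 (-0.38 ± 0.08) complete the lower group.

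Among genes that were higher at ZT15, Tent4a, which codes for a poly(A) polymerase, was at -0.20, -0.16, -0.15 and -0.37 at ZT11 and at 0.07, 0.09, 0.06 and 0.20 at ZT15. The difference was 0.33 ± 0.06 (adjusted p with limma 0.0895). Eif6, a factor that keeps the large ribosomal subunit from joining too early, lay at -0.32, -0.17, -0.17 and -0.02 and then at 0.32, 0.37, 0.05 and 0.04, a difference of 0.37 ± 0.07. The ZT15 hearts of Eif6 thus fell into a higher and a lower pair, both above every ZT11 heart. Creb1 codes for the transcription factor that cyclic AMP signalling activates, and its values went from -0.24, -0.31, -0.28 and -0.10 to 0.05, 0.07, 0.20 and 0.16 (0.35 ± 0.07, adjusted p with limma 0.148). Neurl3, a ubiquitin ligase gene, had the widest difference of this group (0.53 ± 0.10), with ZT11 hearts from -0.51 to -0.22 and ZT15 hearts from 0.08 to 0.29. Rtn4r, the receptor gene for the axon-growth inhibitor Nogo, was higher by 0.42 ± 0.08, Fxyd5, a regulator of the sodium pump, by 0.39 ± 0.08, Acin1, a gene of RNA processing, by 0.32 ± 0.06 and Tomm70a, a receptor for mitochondrial protein import, by 0.27 ± 0.06. For the Notch target Hes5 (0.21 ± 0.04) the 2 features disagreed in size, at 0.04 and 0.39.

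**Figure D1:**
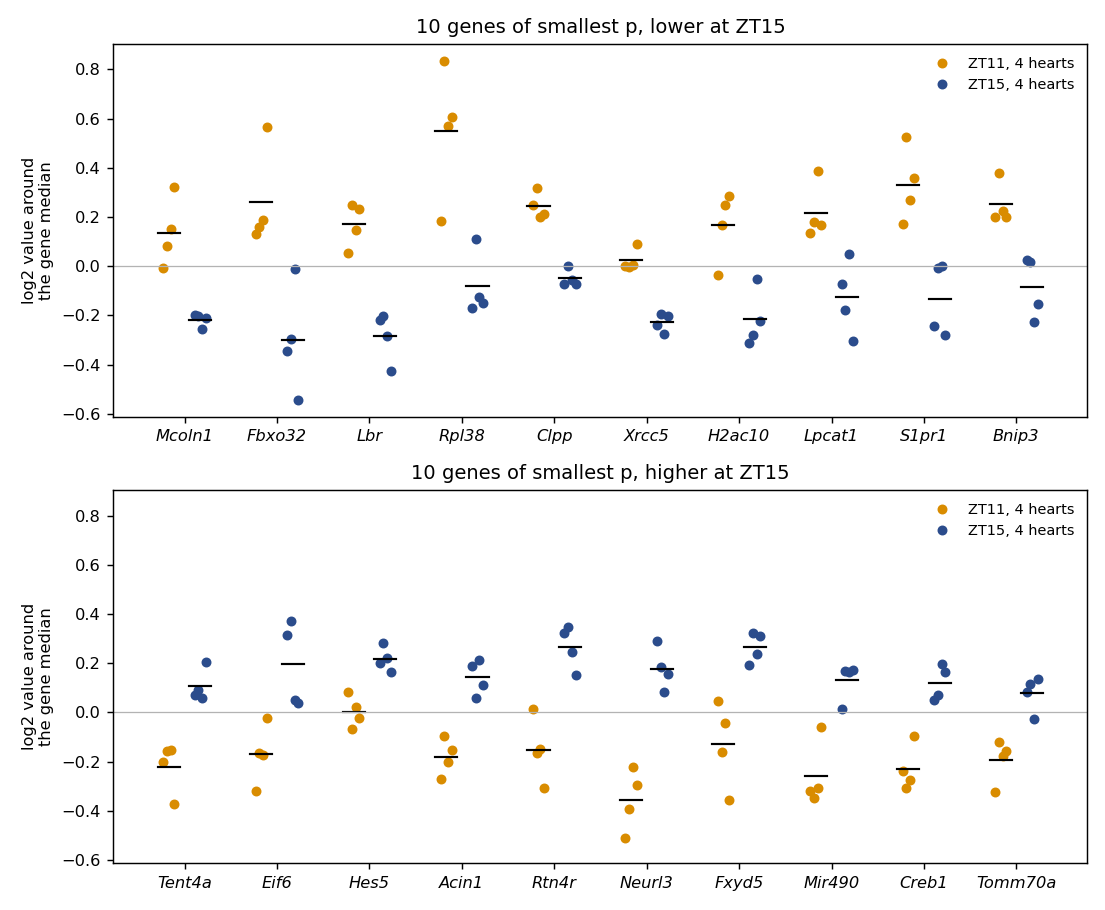
Values of the 20 genes of smallest p for ZT15 minus ZT11, with gene names on the horizontal axis and the log2 value around each gene's own median on the vertical axis. Points are single hearts, 4 at ZT11 and 4 at ZT15, and bars are means; in each of the 20 genes the 2 groups of hearts do not overlap, and 0 of them passed the adjusted threshold.

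All 20 of these genes had hearts that did not overlap, as their selection by p makes likely. Across the 6 time points, 9 of the 10 lower genes had their highest mean at ZT11 and 6 had their lowest at ZT15. Among the 10 higher genes, 9 had their lowest mean at ZT11 and 8 their highest at ZT15. Selection by the ZT15 minus ZT11 difference favours such extremes, so these counts are a description only.

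One of the higher genes is a microRNA gene, Mir490, at chr6:36421742-36421825 on the plus strand (GRCm38.p6), inside Chrm2 at chr6:36387991-36528638 on the same strand, the gene of the muscarinic receptor through which the vagus nerve slows the heart. The hairpin yields a mature microRNA from each arm, printed here from RefSeq with the seed, bases 2 to 8, in capitals, because the seed decides which messenger RNAs are bound:
mmu-miR-490-5p: cCAUGGAUcuccaggugggu
mmu-miR-490-3p: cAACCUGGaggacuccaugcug
The array feature is annotated to the gene, so the arms cannot be told apart. Mir490 was at -0.32, -0.35, -0.31 and -0.06 at ZT11 and at 0.02, 0.17, 0.16 and 0.17 at ZT15, a difference of 0.39 ± 0.08 (adjusted p with limma 0.119). One heart in each group lay apart from its other 3, both toward the opposite group. Chrm2 showed -0.11 over the same step. The difference between the Mir490 and Chrm2 steps was not tested.

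In the core clock list, 0 of 21 measured genes passed (0.00% of all genes did). At an unadjusted p under 0.05, 1 was higher and 3 were lower, where all genes gave 3.58% and 3.65%, and the median difference was -0.05. Per1, a light- and hormone-responsive repressor gene of the loop, had the widest difference. Its values were 0.48, 0.61, 0.39 and 0.76 at ZT11 and -0.23, -0.49, 0.41 and -0.25 at ZT15, a difference of -0.70 ± 0.18 (adjusted p with limma 0.279). ZT15 replicate 3 lay among the ZT11 hearts, and without it the difference was -0.89 (adjusted p 0.0933). The Per1 promoter in RefSeq holds the E-box CACGTG, the palindromic site that CLOCK and BMAL1 bind and the element that the mutant protein serves poorly. It lies 166 to 161 bases before the annotated start, at chr11:69098758-69098813 (GRCm38.p6, plus strand), shown with the E-box in capitals:
Per1: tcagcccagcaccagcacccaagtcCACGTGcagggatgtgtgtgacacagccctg
Of 20 core clock genes with a promoter entry, 5 held CACGTG within the promoter stretch searched on both strands, Per1, Cry1, Tef, Ciart and Bhlhe41. Among all 27025 genes with an entry, 8.09% held it. The motif was not particular to the clock list. It was held by 6 of 24 genes of the glucocorticoid list described below, 5 of 28 of the insulin and FoxO list and 4 of 26 of the heat shock list. A match describes letters, not binding. The remaining core clock members with this motif differed little, at 0.15 for Cry1, -0.05 for Tef, -0.05 for Ciart and -0.08 for Bhlhe41.

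On the activating side of the loop, Clock was at -0.30, -0.19, -0.24 and -0.18 at ZT11 and at -0.12, -0.03, 0.0041 and 0.03 at ZT15, a difference of 0.20 ± 0.09 (adjusted p with limma 0.680). The groups did not overlap. The position of the Clock probes is unknown here, so this feature is no check of the skipped exon. Arntl showed 0.26 ± 0.15, from -0.38, -0.35, -0.42 and -0.21 to -0.13, 0.08, -0.03 and -0.25, with ZT15 replicate 4 inside the ZT11 range. Npas2, which can take the place of CLOCK, differed the other way (-0.19 ± 0.09), as did the BMAL1 paralog gene Arntl2 (-0.17 ± 0.08).

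Apart from Per1, the repressor and output genes of the list had differences from -0.08 to 0.17. Nr1d1 and Nr1d2, which code for the REV-ERB repressors of Arntl, showed 0.03 ± 0.13 and -0.03 ± 0.14, and their opponent Rora 0.02 ± 0.06. These 3 signs each turned when some single hearts were left out. The Period and Cryptochrome genes Per3 (0.06), Cry1 (0.15) and Cry2 (-0.06), the output regulators Dbp (-0.07), Tef (-0.05), Hlf (0.09) and Nfil3 (0.09), and the repressors Bhlhe40 (0.17) and Bhlhe41 (-0.08) all had overlapping hearts. So did Rorb (-0.06), Ciart (-0.05), Csnk1e (-0.07), which codes for a kinase of PER proteins, and Timeless (-0.06). An unadjusted p above 0.05 with 4 hearts does not show that these genes were level.

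Genes that glucocorticoids are known to induce were mostly lower at ZT15. Of 26 measured members, 0 passed over all genes, while 10 were lower and 1 higher at an unadjusted p under 0.05, where all genes gave 3.65% and 3.58%. Differences were negative in 21 of 26, and the median was -0.12 against 0.0012 for all genes. In 6 members every ZT15 heart lay below every ZT11 heart (1.47% of all genes). Nfkbia, which codes for the inhibitor of NF-kappa-B, lay at 0.39, 0.13, 0.43 and 0.26 at ZT11 and at -0.10, -0.43, 0.12 and -0.09 at ZT15, a difference of -0.42 ± 0.10 (adjusted p with limma 0.251). Ddit4, a stress-induced brake on the mTOR pathway, was at 0.18, 0.28, 0.68 and 0.14 and then at -0.11, -0.26, 0.02 and -0.28 (-0.48 ± 0.14, adjusted p with limma 0.323). ZT15 replicate 3 had the highest value of its group in Nfkbia, Ddit4 and Per1.

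Others of the 10 were the EGF receptor inhibitor gene Errfi1 (-0.39 ± 0.11), the sulfotransferase gene Sult1a1 (-0.36 ± 0.10), the Krüppel-like factor genes Klf9 (-0.34 ± 0.10) and Klf15 (-0.23 ± 0.07), the cell-cycle inhibitor gene Cdkn1a (-0.28 ± 0.11), Tsc22d3 (-0.21 ± 0.09), which codes for the glucocorticoid-induced leucine zipper protein, and Fam107a (-0.15 ± 0.06). Per1 belongs to this list too. The exception was Lcn2, the gene of the iron-siderophore carrier lipocalin 2 (0.15 ± 0.06). Fkbp5, a widely used glucocorticoid target, showed 0.0028 ± 0.064 with overlapping hearts. The mean over all 26 members ran from 0.057 to 0.18 in the ZT11 hearts and from -0.097 to 0.051 in the ZT15 hearts, without overlap. ZT15 replicate 3, at 0.051, was the highest of its group and ZT11 replicate 1, at 0.057, the lowest of the other.

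In the insulin and FoxO list, the members with the smallest p were lower at ZT15, while the rest lay on both sides of 0. Of 35 measured members, 0 passed over all genes, and 0 were higher and 8 lower at an unadjusted p under 0.05, where all genes gave 3.58% and 3.65%. In 6 the hearts did not overlap, all with ZT15 lower (1.47% of all genes). Differences were negative in 23 of 35, and the median of the list was -0.047, or -0.098 without ZT11 replicate 1. The list shares Ddit4 and Tsc22d3 with the glucocorticoid list, so these counts are not separate. Beside Fbxo32, the muscle ubiquitin ligase gene Trim63, which codes for MuRF1, was at 0.04, 0.14, 0.12 and 0.28 at ZT11 and at -0.32, -0.11, -0.16 and -0.46 at ZT15, a difference of -0.41 ± 0.10 (adjusted p with limma 0.262). Sesn1, which codes for a leucine-sensing inhibitor of mTORC1, lay at 0.14, 0.23, 0.05 and 0.07 and then at -0.34, -0.13, -0.22 and -0.24 (-0.36 ± 0.09). In both genes the groups were fully apart. Klhl38, a muscle gene induced in atrophy, was lower by 0.31 as the mean of 2 features that disagreed in size, at -0.09 and -0.53.

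The other lower members were Eif4ebp1, whose product restrains cap-dependent translation (-0.29 ± 0.11), and the insulin-like growth factor receptor gene Igf1r (-0.27 ± 0.10), both with overlapping hearts. Igf1r at ZT11 rested on replicate 2, at 0.43, with the other hearts at -0.11, 0.01 and -0.01. Irs2, the insulin receptor substrate gene, showed -0.14 ± 0.16. The Trim63 promoter is the one among the core clock, heat shock, glucocorticoid and insulin and FoxO lists that holds both a FoxO site and a glucocorticoid response element side by side, on the plus strand of chr4:134314887-134314957 (GRCm38.p6), 208 to 188 bases before the start, with both matches in capitals:
Trim63: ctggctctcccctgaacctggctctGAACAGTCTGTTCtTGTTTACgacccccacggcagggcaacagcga
The glucocorticoid element was searched as GNACA and TGTNC with 3 bases between, which is the same on both strands. It was found in 0.537% of all 27025 genes with a promoter entry and in 4 of 24 glucocorticoid-list genes with an entry. The FoxO site was searched as TGTTTAC on both strands. It was found in 4.05% of all genes with an entry and in 3 of 28 genes of the insulin and FoxO list, Trim63, Sesn1 and Akt1.

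**Figure D2:**
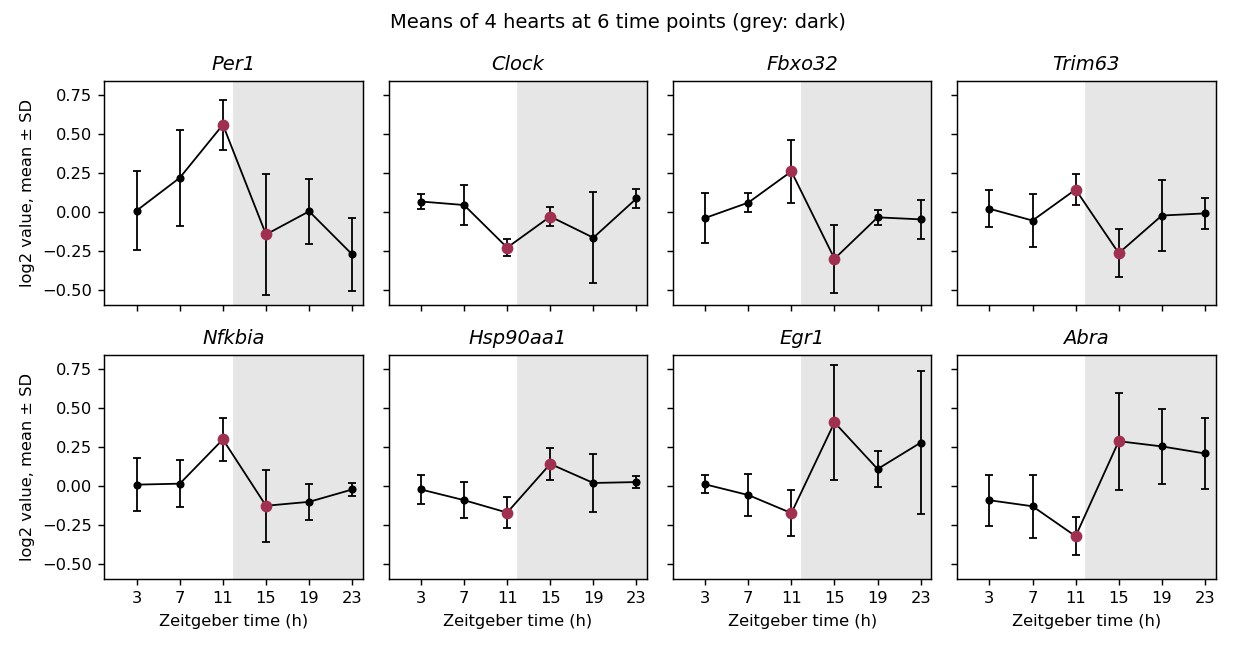
Means of 8 genes at 6 time points, with Zeitgeber time in hours on the horizontal axis, the log2 value on the vertical axis, bars of 1 SD over 4 hearts and the dark phase in grey. Per1, Fbxo32, Trim63 and Nfkbia have their highest mean at ZT11, and Fbxo32, Trim63 and Nfkbia their lowest at ZT15, while Clock, Hsp90aa1, Egr1 and Abra have their lowest mean at ZT11.

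Heat shock genes lay the other way, higher at ZT15. Of 31 measured members, 0 passed over all genes, while 9 were higher and 0 lower at an unadjusted p under 0.05 (3.58% and 3.65% of all genes). Differences were positive in 24 of 31, the median was 0.11, and 3 members had non-overlapping hearts, Hsp90aa1, Fkbp4 and Hspd1 (1.77% of all genes with ZT15 higher). Hsp90aa1, the inducible cytosolic HSP90 gene, was at -0.21, -0.03, -0.26 and -0.18 at ZT11 and at 0.07, 0.17, 0.05 and 0.28 at ZT15, a difference of 0.31 ± 0.08 (adjusted p with limma 0.262). Fkbp4 codes for a co-chaperone of steroid receptors and went from -0.09, -0.17, 0.01 and -0.12 to 0.011, 0.21, 0.03 and 0.03 (0.16 ± 0.05). Hspd1, the mitochondrial chaperonin gene, went from -0.05, -0.13, -0.02 and -0.03 to 0.06, 0.06, 0.21 and 0.10 (0.16 ± 0.06).

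The inducible HSP70 gene Hspa1a had the widest difference but the widest scatter, from -0.19, 0.0014, -0.44 and -0.11 at ZT11 to 0.32, -0.06, 0.01 and 0.87 at ZT15 (0.47 ± 0.19). Its near-identical copy Hspa1b showed 0.14 ± 0.21, and how the array divides signal between the copies is uncertain. The constitutive HSC70 gene Hspa8 (0.23 ± 0.10) had features from 0.10 to 0.32, and its ZT11 hearts ranged from -0.21 to 0.30. Smaller differences were seen for the small heat shock gene Hspb1 (0.13 ± 0.05), the J-domain gene Dnajb4 (0.11 ± 0.05), the HSP110-family gene Hspa4 (0.10 ± 0.04) and the mitochondrial HSP70 gene Hspa9 (0.09 ± 0.04). Hspe1, the partner of Hspd1 in the chaperonin, lay at -0.07 ± 0.07. The mean over the list was between -0.091 and -0.032 in the ZT11 hearts and at 0.028, 0.059, -0.036 and 0.13 in the ZT15 hearts, so ZT15 replicate 3 again fell within the other group. With quantile normalization 6 members were higher at an unadjusted p under 0.05, and without ZT15 replicate 3 there were 11.

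Heat shock factor 1 binds inverted repeats of GAA, here searched in the compact form GAANNTTC. This form is the same on both strands. It occurred in the promoters of 13 of 26 heat shock genes with a RefSeq entry, against 9.04% of all 27025 genes with an entry. This is a known property of these genes and no measurement of these hearts. The stretches that hold it in 4 of the 9 higher members are given on the strand of the gene, matches in capitals. They lie at chr17:34972228-34972285 (minus), chr5:135887777-135887854 (plus), chr1:55088039-55088096 (minus) and chr6:128438775-128438832 (minus) of GRCm38.p6:
Hspa1a: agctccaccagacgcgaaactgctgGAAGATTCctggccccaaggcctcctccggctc
Hspb1: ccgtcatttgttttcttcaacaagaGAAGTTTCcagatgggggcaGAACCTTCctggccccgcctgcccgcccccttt
Hspd1: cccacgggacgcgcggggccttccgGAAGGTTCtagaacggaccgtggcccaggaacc
Fkbp4: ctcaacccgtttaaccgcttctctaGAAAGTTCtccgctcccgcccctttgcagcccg
Hspb1 carries 2 copies between 117 and 90 bases before its start, and the others carry 1 copy each. The other 9 heat shock genes with the motif, Bag3, Chordc1, Dnaja4, Hspa1b, Hspb3, Hspb6, Hspb8, Hspe1 and Hsph1, showed differences from -0.07 to 0.26, none at an unadjusted p under 0.05 with limma.

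**Figure D3:**
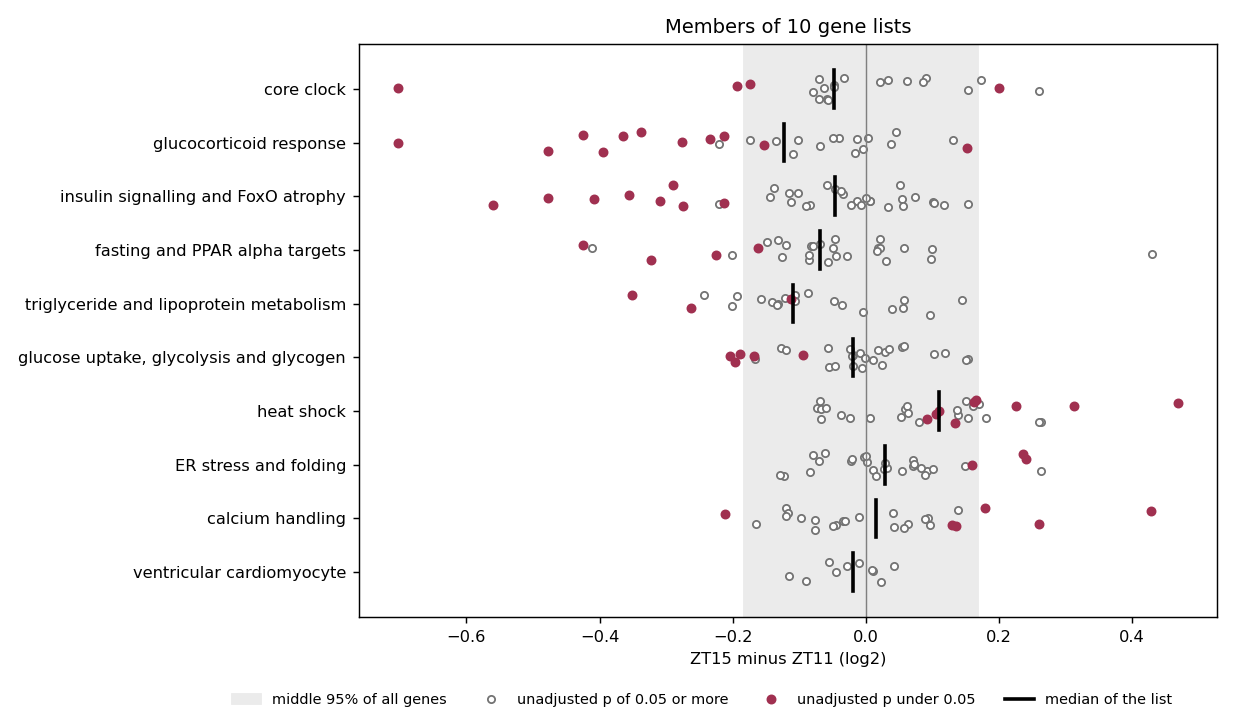
Differences ZT15 minus ZT11 in log2 (horizontal axis) for the measured members of 10 gene lists (rows), with filled points at an unadjusted p under 0.05, a bar at each list's median and the middle 95% of all genes in grey. The median is -0.12 for glucocorticoid response genes and 0.11 for heat shock genes, and 0 members of any list passed the adjusted threshold.

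Fuel-use lists held members lower at ZT15 in numbers to be read against 3.65% of all genes lower and 3.58% higher at an unadjusted p under 0.05. In the list of fasting and PPAR alpha targets, 4 of 29 members were lower at an unadjusted p under 0.05 and 0 higher, with a median of -0.07. Plin5, which coats lipid droplets at mitochondria, was at -0.12, 0.30, 0.01 and 0.33 at ZT11 and at -0.20, -0.54, -0.21 and -0.23 at ZT15 (-0.42 ± 0.15, adjusted p with limma 0.529). Cpt1a, a carnitine palmitoyltransferase gene that admits fatty acids to mitochondria, showed -0.32 ± 0.12, the pyruvate dehydrogenase kinase gene Pdk2 -0.22 ± 0.10 and the coactivator gene Ppargc1b -0.16 ± 0.07. Pdk4, the kinase gene most responsive to fasting, showed -0.20 ± 0.18 with ZT11 hearts from -0.13 to 0.53. In triglyceride metabolism 3 of 22 members were lower and 0 higher, with a median of -0.11. Gpihbp1, which carries lipoprotein lipase across capillary endothelium, went from 0.17, 0.21, 0.19 and 0.27 to 0.0032, -0.16, -0.23 and -0.18 (-0.35 ± 0.10, adjusted p with limma 0.323), and Plin4 and Agpat3 showed -0.26 and -0.11.

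For sterol and fatty acid synthesis, 2 of 27 members were lower and 0 higher, the desaturase gene Scd4 (-0.39 ± 0.13) and Acacb (-0.34 ± 0.12), whose product makes the malonyl-CoA that restrains Cpt1 enzymes. In glucose use 5 of 29 were lower and 0 higher: the phosphofructokinase gene Pfkm (-0.20), the lactate dehydrogenase gene Ldhb (-0.20), the glycogen phosphorylase genes Pygb (-0.19) and Pygm (-0.17), and the muscle enolase gene Eno3 (-0.09). Respiratory complex I had 4 of 33 members lower and 1 higher, with Ndufa11 at -0.33 ± 0.08 and Ndufs7 at -0.27 ± 0.08. Complexes II to V had 3 of 40 lower and 2 higher, led by the complex II gene Sdhd (-0.28 ± 0.07). Counts such as 3 of 40 and 2 of 27 are too near the share of all genes to be read as a result about these lists. The medians of these lists were both -0.04.

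Protein synthesis genes showed no common direction. Their counts at an unadjusted p under 0.05 stand beside 3.65% of all genes lower and 3.58% higher. Apart from Rpl38, cytosolic ribosomal protein genes with an unadjusted p under 0.05 were Rpl8 (-0.19), Rplp0 (-0.16) and Rplp1 (-0.11), so 4 of 59 members were lower and 0 higher. The mitochondrial ribosome had 5 of 69 higher and 4 lower, from Mrps22 (0.23) to Mrpl51 (-0.22), around a median of 0.00067. Ribosome biogenesis had 2 of 41 higher and 3 lower, and the proteasome 1 of 43 lower, Psmb3 (-0.20). Splicing genes included Hnrnpm (0.25) and Luc7l3 (0.20) on one side and Srsf5 (-0.34) on the other.

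Of 29 genes of endoplasmic reticulum folding, 3 were higher and 0 lower at an unadjusted p under 0.05: the disulfide isomerase gene Pdia3 (0.24 ± 0.08), the co-chaperone gene Dnajc3 (0.24 ± 0.10) and Atf4, a transcription factor gene of the integrated stress response (0.16 ± 0.06). Of all genes, 3.58% were higher and 3.65% lower at that threshold. In the interferon list 3 of 27 were higher and 0 lower at the same threshold. Bst2, the gene of the virus-tethering protein tetherin, was at 0.07, -0.31, -0.04 and -0.28 at ZT11 and at 0.38, 0.35, 0.47 and 0.10 at ZT15 (0.47 ± 0.13, adjusted p with limma 0.320), and Cxcl10 and Irf1 showed 0.19 and 0.15. In the antioxidant list the 3 members with an unadjusted p under 0.05 were all glutathione transferase genes and lower, Gstm2 (-0.31), Gstp1 (-0.31) and Gstm1 (-0.24). Gstm1 and Gstm2 have similar sequences, so their signals may be shared. The other glutathione transferase genes of the list showed 0.01 for Gstm4, 0.02 for Gsta3 and -0.03 for Gsta4. Autophagy had 4 of 31 lower at that threshold, among them Bnip3, Sqstm1 (-0.25) and Atg12 (-0.22), and 1 higher, Atg5 (0.19).

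Immediate early genes, which neural and hormonal stimuli switch on within minutes, split. Egr1 was at -0.03, -0.37, -0.09 and -0.20 at ZT11 and at 0.26, 0.36, 0.08 and 0.93 at ZT15, a difference of 0.58 ± 0.17 (adjusted p with limma 0.349). Ier3, which codes for a survival factor, went from 0.09, -0.17, -0.01 and -0.03 to 0.47, 0.39, 0.14 and 0.47 (0.40 ± 0.12). Fos also had non-overlapping hearts but a wide dark-phase range, from -0.00016 to 0.80 (0.39 ± 0.21, unadjusted p with limma 0.0733). On the other side were Klf6 (-0.38 ± 0.10) and Nr4a1 (-0.41 ± 0.20, unadjusted p with limma 0.0523). Of 29 members, 2 were higher and 1 lower at an unadjusted p under 0.05, where all genes gave 3.58% and 3.65%. ZT15 replicate 4 had the highest value of Egr1, Fos and Hspa1a.

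Among contractile and signalling genes, Abra had the widest difference among those higher at ZT15 that code for a protein. It codes for an actin-binding protein of striated muscle, and went from -0.47, -0.29, -0.17 and -0.35 to 0.08, 0.60, -0.03 and 0.51 (0.61 ± 0.15, adjusted p with limma 0.251). Tcap (-0.35 ± 0.15) and Csrp3 (-0.10 ± 0.04), Z-disc genes named for their small p, were lower. No direction of Z-disc genes as a group is read from them. In the filaments 3 of 22 members were lower and 0 higher at an unadjusted p under 0.05, where all genes gave 3.65% and 3.58%. The lower ones were the M-band gene Myom2 (-0.47 ± 0.15), the cardiac myosin light chain kinase gene Mylk3 (-0.26 ± 0.09) and the actin filament nucleator gene Lmod2 (-0.15 ± 0.07). Adcy5, a main adenylyl cyclase of cardiomyocytes, was lower (-0.49 ± 0.14), from 0.29, 0.31, 0.48 and 0.02 to -0.07, -0.55, -0.03 and -0.22, and Adcy4 was higher (0.34 ± 0.10). Adcy5 had non-overlapping hearts and Adcy4 did not.

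Calcium handling had 5 of 26 members higher and 1 lower at an unadjusted p under 0.05, where all genes gave 3.58% and 3.65%. Sri codes for sorcin, a calcium sensor that modulates the ryanodine receptor, and was at -0.28, -0.17, -0.33 and -0.19 at ZT11 and at -0.01, -0.02, -0.05 and 0.14 at ZT15 (0.26 ± 0.07, adjusted p with limma 0.263). Casq1, the skeletal calsequestrin gene (0.43 ± 0.13), and the sodium-calcium exchanger gene Slc8a1 (0.14 ± 0.05) also had non-overlapping hearts, as did the calcium channel subunit gene Cacnb2 (0.13 ± 0.06). Of all genes, 1.77% had non-overlapping hearts with ZT15 higher. The pore subunit gene Cacna1c lay lower (-0.21 ± 0.09), and the central genes Atp2a2 (-0.05), Ryr2 (0.04) and Pln (-0.01) were near 0. The inward rectifier gene Kcnj2 showed 0.34 ± 0.10 and the delayed rectifier gene Kcna5 -0.32 ± 0.11, with overlapping hearts in both. Egln3, an oxygen-sensing prolyl hydroxylase gene, was higher (0.56 ± 0.17), from -0.48, -0.29, -0.54 and -0.23 to 0.37, 0.37, -0.20 and 0.16.

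The widest differences of all were in small non-coding RNAs, chosen here after their values were seen. Of the 13 genes at 1.5-fold or more, 11 were lower at ZT15 and 7 were genes of small nucleolar RNAs, a microRNA or a Y RNA. Snord71 had the widest, from 0.96 ± 0.40 (SD, n = 4) at ZT11 to -0.94 ± 0.43 (SD), a difference of -1.90 ± 0.46 (adjusted p with limma 0.251), but its SD at ZT19 was 1.39. Snora61 (-0.80 ± 0.25) had an SD of 0.88 at ZT11 and 0.08 at ZT15. Of 73 measured Snora and Snord genes, 9 were lower and 1 higher at an unadjusted p under 0.05, where all genes gave 3.65% and 3.58%. The median of the 73 was -0.04. The protein-coding members of the 13 were Depp1 (-0.79 ± 0.24), a FoxO-induced gene, Timp4 (-0.63 ± 0.15), a metalloproteinase inhibitor gene of the heart, and Per1, Rpl38 and Abra.

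Few cell-type markers stood out over this step. In each of the 15 marker lists at most 1 member was higher and at most 1 lower at an unadjusted p under 0.05, where all genes gave 3.58% and 3.65%. With 1 to 12 measured members per list, such counts are too small to be read as a result about a cell type. The erythroid list had 1 measured gene, Slc4a1. Ventricular cardiomyocyte markers had a median of -0.02, and the mean over the 10 markers ran from -0.036 to 0.061 in the ZT11 hearts and from -0.014 to 0.041 in the ZT15 hearts. The mean over the atrial list, which holds Kcna5, varied most between hearts of a group. It ran from -0.035 to 0.34 at ZT11 and from -0.13 to 0.14 at ZT15. Its member Sln was at 1.17 in ZT11 replicate 2 and at -0.45 in ZT11 replicate 4. The means of the ZT11 and ZT15 hearts overlapped in all lists except that of Schwann cells and neurons, 8 measured markers, at -0.044 to 0.011 and 0.013 to 0.070. The part of this list and of the atrial list in the results above was not tested. In RNA from bulk tissue, fewer cells of a type and less RNA per cell cannot be told apart.

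The step into darkness was then tested against the step into light, ZT03 minus ZT23, which shares none of its hearts. For 53 genes (0.239%) the steps differed at an adjusted p under 0.05 with limma, 18 with the lights-off step higher (0.0812%) and 35 with it lower (0.158%). At an unadjusted p under 0.05 there were 2197 (9.91%). In 51 of the 53 the steps had opposite signs, which selection by their difference favours, and the larger step was the one at lights off in 12 and the one at lights on in 41. The step into light is part of that difference, and it passed by itself for 33 of the 53 and for 231 of all genes (1.04%), from which nothing is read. Because the steps are subtracted, the same number also compares the sum of ZT15 and ZT23 with the sum of ZT11 and ZT03. The count depends on single hearts. It was 0 without ZT03 replicate 3, 2 without ZT11 replicate 2 or ZT11 replicate 4, 6 without ZT15 replicate 4, 15 without ZT23 replicate 1, 19 without ZT15 replicate 2, and 97 without ZT11 replicate 1. It was 35 without ZT11 replicate 3, 30 without ZT03 replicate 2, and 31, 32 and 27 without ZT23 replicates 2, 3 and 4. Of the 53 genes, 0 passed in all 16 of these fits and 2, Scin and Mcoln1, in 15.

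Scin, the gene of the actin-severing protein scinderin, had the widest opposition, with -0.50 ± 0.12 at lights off and 0.72 ± 0.12 at lights on, a difference of -1.22 ± 0.17 (adjusted p with limma 0.0126). At ZT11 it was at -0.19, -0.07, 0.40 and 0.41, and at ZT15 at -0.39, -0.33, -0.41 and -0.32. Mcoln1 showed -0.35 at lights off and 0.19 at lights on (difference -0.54 ± 0.08, adjusted p with limma 0.0191), and Klhl38 -0.31 and 0.33 (-0.64 ± 0.10, adjusted p with limma 0.0217). A second FoxO-list gene, Sesn1, differed as well, at -0.36 and 0.29 (adjusted p 0.0459), so 2 of 35 members of that list were among the 53 (0.239% of all genes). Sesn1 passed in 3 of the 16 fits with a heart left out, and the features of Klhl38 gave differences between steps of -1.19 and -0.09. Rragb, which codes for a GTPase that relays amino acids to mTORC1, and Tmem65, a gene of the intercalated disc, were carried by lights on, with -0.06 against 0.20 and 0.05 against 0.46.

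Heat shock genes gave 4 of 31 members (0.239% of all genes), all with positive values at lights off and negative ones at lights on. Of 16 fits with 1 heart left out, Hspa4 passed in 6, Fkbp4 in 4, and Hspd1 and Hspa8 in 2 each. Hspa8 stepped by 0.23 and -0.47 (difference 0.69 ± 0.15, adjusted p with limma 0.0494), Hspd1 by 0.16 and -0.23, Fkbp4 by 0.16 and -0.21 and Hspa4 by 0.10 and -0.22. Fxyd5 (0.39 and -0.29) and Rtn4r (0.42 and -0.25) had the smallest p of this direction, both at an adjusted p of 0.0257 with limma, followed by the splicing gene Luc7l3 (0.20 and -0.31), the nuclear long non-coding RNA Malat1 (0.10 and -0.41) and Tomm70a (0.27 and -0.19). Bst2 (0.47 and -0.50), Ier3 (0.40 and -0.43), the collagen hydroxylase gene P4ha1 (0.29 and -0.32) and the angiogenic factor gene Vegfa (0.12 and -0.47) also differed. In the opposite sense, so did the neonatal Fc receptor gene Fcgrt (-0.40 and 0.56) and the angiotensin receptor gene Agtr1a (-0.25 and 0.43). So did Chrm2 (-0.11 and 0.35), and the complex I genes Ndufs1 (-0.03 and 0.24) and Ndufb5 (-0.09 and 0.32), whose dark step was small. With 1 heart left out, Chrm2 passed in 10 of 16 fits, Fcgrt in 7, Bst2 in 5, and Ndufs1 and Ndufb5 in 4 each. P4ha1, Vegfa and Agtr1a passed in 3 each and Ier3 in 2. Of the 20 genes of smallest p at lights off, 9 were among the 53 (0.239% of all genes). The lights-off step is part of that difference, so choosing genes by this step favours such an overlap. Core clock and glucocorticoid-list genes gave 0, which beside a share of 0.239% is no result about these lists.

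**Figure D4:**
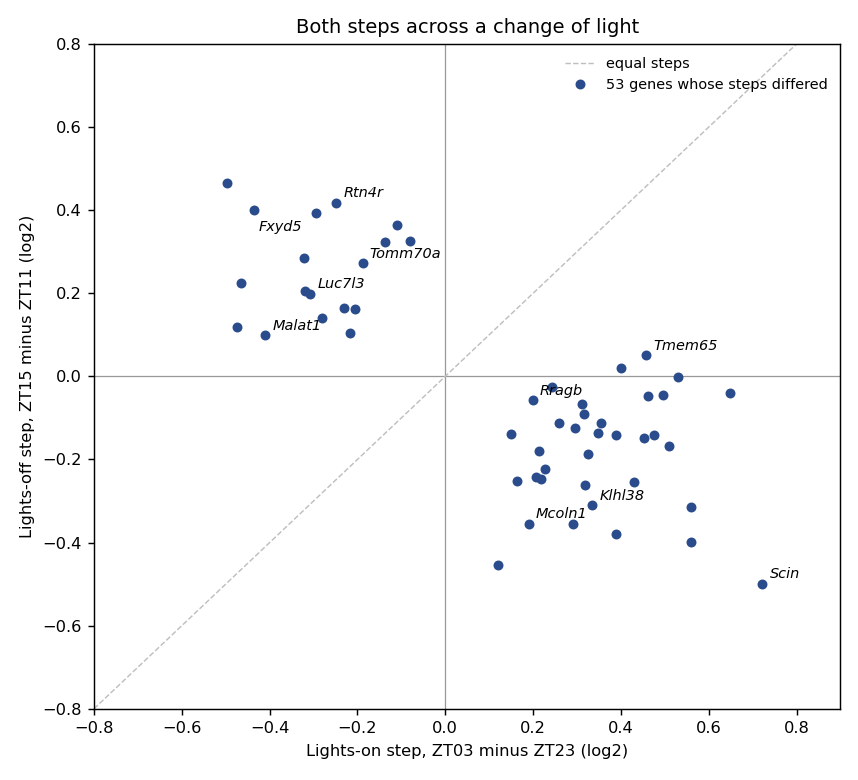
The step at lights on (ZT03 minus ZT23, log2, horizontal axis) against the step at lights off (ZT15 minus ZT11, log2, vertical axis) for the 53 genes whose steps differed, each point 1 gene. In 51 genes the steps have opposite signs, which choosing genes by the difference favours, and Scin lies farthest from the dashed line of equal steps.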

How the data were processed

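Transcript levels were measured in 24 hearts, and the comparison rests on the 4 hearts at ZT11 and the 4 at ZT15. Biotinylated cRNA came from 500 ng of TRIzol-extracted RNA per heart, per the labels' protocols. The array table of 34351 features was used as deposited, with log2 as the assumed scale; in it every feature has a median of 0 over the arrays, a centring done by the authors. The log base, probe summarization and normalization are not given in the sources used here, and every size would be larger if the base were e. Levels are lost by the centring, so no filter on low signal could be applied, and signal over background is unknown.

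Features with exactly 1 gene symbol (23521, against 1814 with several and 9016 with none) were averaged per gene, which left 22180 genes. All were fitted with limma 3.58.1 in R 4.3.3 as 6 time-point means (18 residual degrees of freedom), with Benjamini-Hochberg adjustment over all genes at 0.05. The scripts were tested on simulated data. The 4 arrays per time point limit the precision. Array pairs showed no duplicate (highest correlation 0.36).

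Genes were named by rule: the 10 of smallest p in each direction where fewer passed, all core clock genes, up to 3 members of each pathway list with an unadjusted p under 0.05, and 5 per direction for lights off minus lights on. Other list members are named within their list's count, or as reference members chosen after their values were seen. The comparison, the lists and the members were chosen with earlier results of these data known. Promoters, microRNAs and coordinates are RefSeq's for GRCm38.p6 (250 bases before and up to 50 after each start). Alternatives were the fit on the compared hearts only, array weights, quantile or median scaling, single features, robust eBayes, the replicate block and each heart left out.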

Additional observations from a re-analysis of the deposited data

Results flagged for a closer look

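For 29 named genes the step at lights off differed from the step at lights on at an adjusted p under 0.05 with limma. Of these genes, 0 passed in all 16 fits with 1 heart left out. The difference, lights off minus lights on, was 0.96 for Bst2, 0.83 for Ier3, 0.69 for Fxyd5, 0.69 for Hspa8, 0.67 for Rtn4r, 0.61 for P4ha1, 0.59 for Vegfa, 0.51 for Malat1 and 0.51 for Luc7l3. It was 0.48 for Eif6, 0.46 for Acin1, 0.46 for Tomm70a, 0.41 for Tent4a, 0.40 for Hspd1, 0.37 for Fkbp4 and 0.32 for Hspa4. In the other direction it was -1.22 for Scin, -0.96 for Fcgrt, -0.68 for Agtr1a, -0.65 for Sesn1, -0.64 for Klhl38, -0.57 for Lbr, -0.54 for Mcoln1, -0.47 for Chrm2, -0.41 for Ndufb5, -0.41 for Xrcc5, -0.41 for Tmem65, -0.27 for Ndufs1 and -0.26 for Rragb.

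Among 246 groups of 4 hearts, 15 held a heart that lay far from its other 3, where chance gives about 1 in 20. At ZT11 these were Mir490 replicate 4 (-0.060), Fbxo32 replicate 4 (0.56), Xrcc5 replicate 4 (0.092), Bnip3 replicate 2 (0.38) and Arntl2 replicate 2 (-0.069). Further ZT11 hearts were replicate 1 in Rorb (-0.11), Gstm2 (0.49) and Errfi1 (-0.13). At ZT15 they were replicate 1 in Mir490 (0.016), Dbp (0.29), Ndufs7 (-0.051) and Atg12 (-0.049), and replicate 2 in Rpl38 (0.11), Plin5 (-0.54) and Fkbp4 (0.21).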

How the results depend on the processing

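For ZT15 minus ZT11 the count of genes at an adjusted p under 0.05 stayed at 0 in all 7 alternatives that kept every heart, with 1341 to 1682 genes at an unadjusted p under 0.05, and ran from 0 to 3 with single hearts left out. For the lights-off step minus the lights-on step, 53 genes became 14 with only the hearts of the time points compared, 36 to 54 in the other 6 alternatives, and 0 to 97 with single hearts left out. The fit on the compared hearts has fewer samples to estimate the spread. For the heart removals the cause was not tested. The led list counts stayed within 1.5 times: 9 to 11 lower for glucocorticoid response genes, 7 to 9 lower for insulin and FoxO genes and 6 to 11 higher for heat shock genes. Their medians ran from -0.15 to -0.098, from -0.098 to -0.039 and from 0.090 to 0.13. With single hearts left out, Nr1d1 ran from -0.048 to 0.10, Nr1d2 from -0.090 to 0.037 and Rora from -0.016 to 0.047, and the cause of the turned signs was not tested. Over single genes and list medians, 1875 values kept their direction and their side of the threshold, 43 no longer passed, 4 newly passed and 6 turned sign. The ZT15 minus ZT11 values among them had not passed with all hearts, so they had no threshold to lose. The 43 came from the difference between steps, for which only the 10 genes named by rule were tallied. Lbr, another of the 53, passed in 1 of 16 fits with a heart left out.

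Same-numbered hearts correlated between -0.23 and 0.23, and those of ZT11 and ZT15 between -0.14 and 0.04. Of 15 pairs per replicate number, 4 lay above 0.1 for replicate 1, 4 for replicate 4 and 0 for replicates 2 and 3. Such correlations cannot show whether the replicate numbers pair the hearts, because a pairing may touch only some genes. With the replicate block, 0 genes passed for ZT15 minus ZT11 (smallest adjusted p with limma 0.151) and 36 for the difference between steps. Values centred per feature leave signal over background unknown, and 4 hearts per time point limit what can pass.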
